A study of Saccharomyces cerevisiae with 21 samples.

Results

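Ribosome biogenesis genes of budding yeast, Saccharomyces cerevisiae, were followed through 7 groups of cultures that differed in the U1 small nuclear ribonucleoprotein (U1 snRNP), in Luc7 or in culture density. The set held 58 genes of the 6571 coding sequences in the deposited tables, taken by systematic name. Of these, 3 encode the core proteins of box C/D small nucleolar particles, 7 the UTP-A complex, 6 the UTP-B complex, 5 the U3, Mpp10 and UTP-C proteins, 12 other factors of the small subunit, 5 helicases of the large subunit precursor (pre-60S) and 20 other pre-60S factors. The rule names genes by function and uses no measured value. All 58 matched the R64 (sacCer3) annotation with the same coding length, lay on 14 chromosomes, and did not overlap another annotated coding sequence.

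Ribosomes are built in the nucleolus, where RNA polymerase I makes a long precursor of the ribosomal RNAs. The UTP-A and UTP-B complexes and the U3 particle bind the front of this precursor and form the small-subunit processome, box C/D particles methylate the RNA, and helicases, GTPases and scaffold proteins carry the pre-60S particle toward export. In yeast the genes for these factors are known to be transcribed together when cells grow fast and to be turned down together under stress or starvation. They are often called the Ribi regulon.

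Wildtype cells and cells carrying a humanized form of U1C, the U1 snRNP protein that yeast encodes as YHC1, were taken at low density, an OD600 of about 0.4. The same strains had been taken at high density in an earlier experiment, at an OD600 of about 5 for wildtype and about 8 for humanized cells. The labels place a triple mutant of Luc7 at low density. Luc7 is another U1 snRNP protein, which contacts the 5′ splice site, and the labels do not name the 3 changes. A further strain carried Luc7 with a degron, and its cells were taken without IAA (undepleted) and after 6 h with beta-estradiol and IAA (depleted), so the depleted cells differed by both agents. Cells grew in YPD or dropout medium, and which group had which was not given, nor was the density of the degron cultures. Each group had 3 libraries of polyadenylated RNA. The labels do not say that these came from separate cultures, so p-values measure the spread between libraries, which may be technical.

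Assigned reads ran from 28457221 to 46835644 per library. LUC7 mRNA had 83.8–168 CPM (reads scaled by the library total) in the degron libraries and 31.9–56.9 in all others, and a degron acts on the protein, so the mRNA does not check the depletion. YHC1 had 27.3–46.96 CPM, counted over the yeast sequence. URA3 had no read in the triple mutant and at least 472 CPM in each wildtype and humanized library. In the degron libraries it had 27.1 CPM in depleted replicate 1, 3.19 in undepleted replicate 1 and at most 0.584 in the others. LEU2 had no read in wildtype and humanized libraries and at least 155 CPM in the triple mutant and degron libraries. These strains therefore also differed in their nutritional markers. Ribosomal protein genes held 14.2–18.1% of reads in wildtype libraries, 12.5–13.4% in undepleted and 4.30–5.16% in depleted degron libraries. Wildtype replicate 2 stood apart at each density, with the highest ribosomal protein share of its group (18.1% and 16.9%) and, at high density, a median level of the biogenesis genes 0.23 below their mean on the log2 scale against 0.02 and 0.05 above it in the other libraries. Since bulk RNA was measured, fewer cells of a kind and less RNA per cell cannot be told apart.

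Most promoters of these genes carry a shared pair of elements, and the stretch that holds both is shown for 8 genes. These were taken from the genes that hold both elements and that the results below turn on. The core of the PAC element is GATGAG, which the yeast repressors Dot6 and Tod6 are known to bind. The core of the RRPE element is AAAATTTT, which the yeast repressor Stb3 is known to bind. Each line runs 5′ to 3′ on the coding strand, in R64 coordinates, and the capitals mark the matches to both cores. CTCATC is GATGAG read on the opposite strand.
NOP1: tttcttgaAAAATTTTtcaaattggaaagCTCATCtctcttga
NOP56: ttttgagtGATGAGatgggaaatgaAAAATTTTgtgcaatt
UTP9: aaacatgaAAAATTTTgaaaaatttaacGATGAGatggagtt
PWP2: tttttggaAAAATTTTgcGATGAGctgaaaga
DBP8: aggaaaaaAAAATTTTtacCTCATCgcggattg
UTP20: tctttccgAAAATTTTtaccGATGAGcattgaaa
NOG1: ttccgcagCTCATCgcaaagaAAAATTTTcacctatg
NOG2: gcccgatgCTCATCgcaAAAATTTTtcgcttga

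The NOP1 stretch is chrIV:427131-427173 on the plus strand, with the PAC core 204 bases before the start codon. NOP56 has it at chrXII:545962-546002 (plus strand, 127 bases), UTP9 at chrVIII:491794-491835 (plus strand, 109 bases) and PWP2 at chrIII:223359-223390 (minus strand, 144 bases). For DBP8 it is chrVIII:442025-442057 (plus strand, 137 bases), for UTP20 chrII:227444-227477 (plus strand, 172 bases), for NOG1 chrXVI:370827-370863 (plus strand, 143 bases) and for NOG2 chrXIV:723269-723301 (minus strand, 181 bases). The order and the strand of the cores differed between genes, while in each of these 8 the cores lay close together.

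Within 300 bases before the start codon, and counting both strands, GATGAG occurred in 54 of the 58 genes (93.1%), against 18.5% of all 5875 promoters read. AAAATTTT occurred in 49 (84.5%), against 9.60% of all promoters. Both occurred in 46 (79.3%), against 4.54%. In those 46 genes the starts of the nearest pair lay a median of 16 bases apart, and within 50 bases in 45 of them (97.8%). In the 221 other promoters with both cores the median was 24 bases, and 178 (80.5%) had the pair within 50 bases. The PAC core began a median of 124.5 bases before the start codon, with a range of 68 to 204. These cores do not overlap in sequence, and a match describes letters, not binding. All 3 box C/D genes and all 12 other small-subunit genes held both cores, as did 5 of 6 UTP-B genes, 4 of 7 UTP-A genes and 2 of the 5 U3, Mpp10 and UTP-C genes. UTP4, UTP15 and NSA1 had no match to GATGAG, and UTP22 had none to either core within this window. RRP9 and UTP18, which stand out in results below, had no match to AAAATTTT, nor did UTP8, IMP3, MAK5, NOP4, NOP12 and NOP16.

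**Figure D1:**
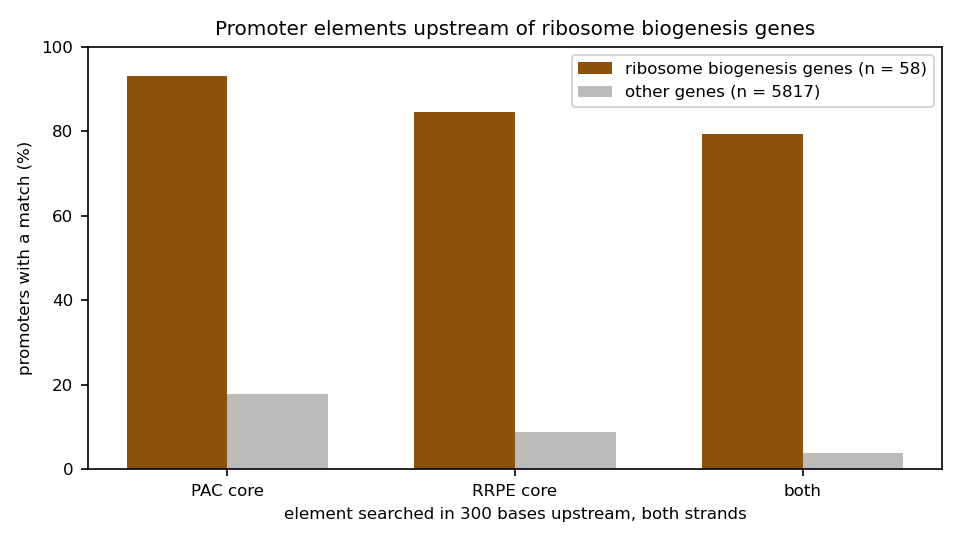
Share of promoters (%, vertical axis) with at least 1 match to the PAC core, to the RRPE core or to both within 300 bases before the start codon, for the 58 ribosome biogenesis genes (brown) and 5817 other genes (grey). The brown bars stand at 93.1, 84.5 and 79.3% and the grey bars at 17.8, 8.85 and 3.80%.

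The genes were well expressed in every group. Their median level, as the mean TPM (transcript abundance scaled by length) over 21 libraries, was 86.4, against 31.2 over all 6571 sequences. The box C/D trio was highest. NOP1 (YDL014W, chromosome IV, 427364–428347), the yeast fibrillarin that methylates RNA, had a mean of 906.5 TPM and at least 631 in each library. Its partners NOP56 (YLR197W) and NOP58 (YOR310C) had means of 378 and 340 TPM, with overlapping ranges of 290–459 and 254–420, so the order of these 2 was not clear from the libraries. The lowest level belonged to UTP20 (YBL004W, chromosome II, 227636–235117), a very large scaffold protein with the longest coding sequence of the set (7482 bases), at 23.7 TPM (14.8–30.0). Together the 58 genes took 2.01–2.08% of all reads in undepleted degron libraries, 1.71–1.82% in wildtype and 1.77–1.82% in humanized libraries at low density. At high density these shares were 1.51–1.80% and 1.74–1.91%. The lowest shares were those of depleted degron cells (1.39–1.61%) and of the triple mutant (1.40–1.51%), which overlapped each other and neither the undepleted libraries nor wildtype at low density. Levels given below as normalized CPM are scaled over all 21 libraries (TMM), while fold changes come from the fit of each comparison. A gene is called at an edgeR adjusted p below 0.05, and the adjustment covers all sequences tested.

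**Figure D2:**
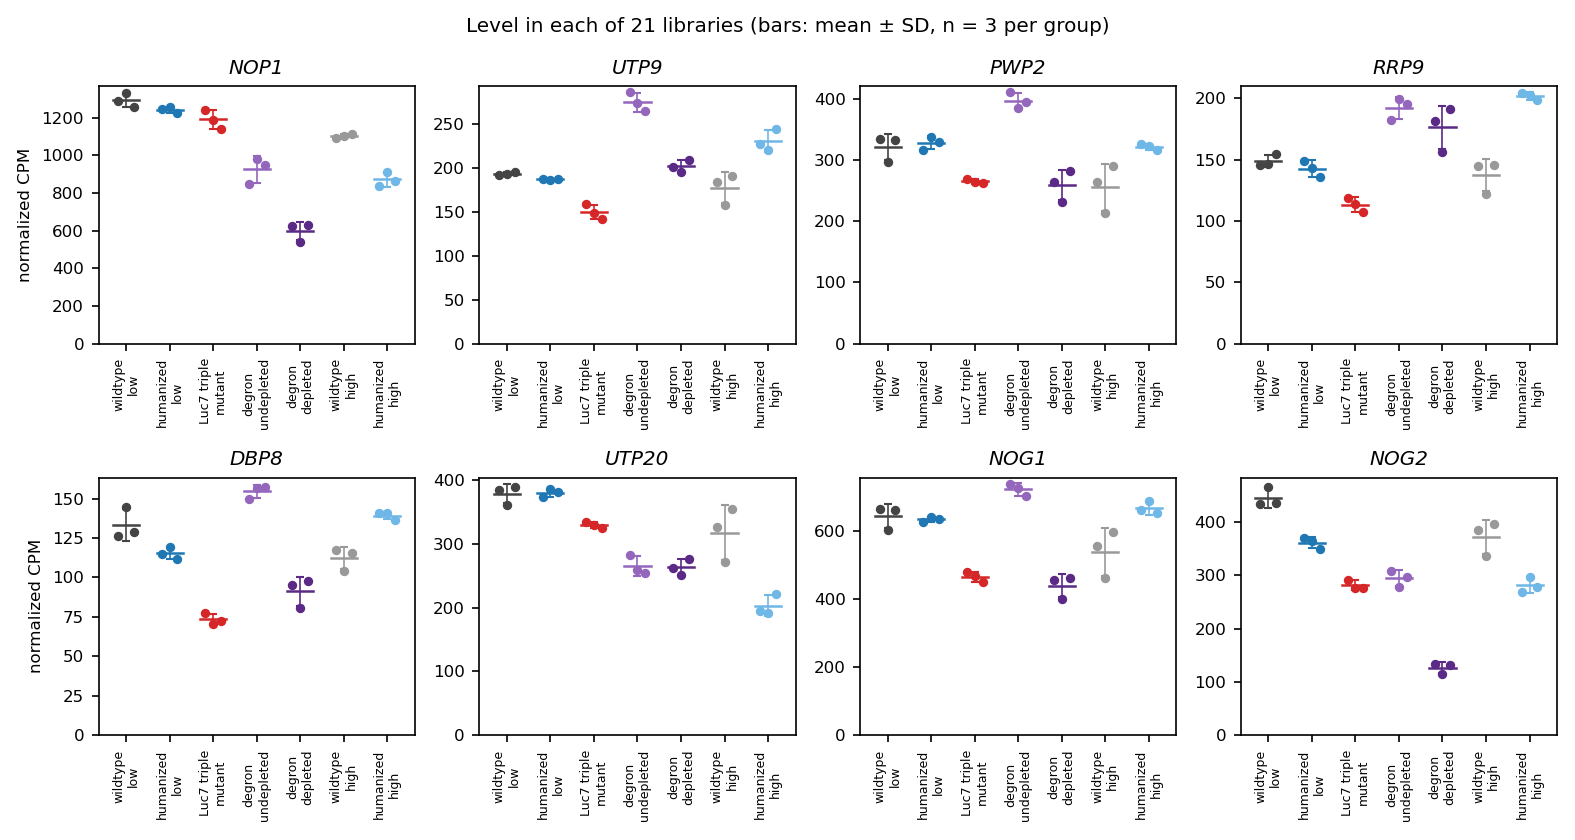
Normalized CPM (vertical axes, starting at 0) of 8 ribosome biogenesis genes in each of 21 libraries by group, with points for libraries and bars for mean ± SD (n = 3). NOP1 ranges from 542 to 1330 and is lowest in depleted degron cells, while UTP20 is lowest in humanized cells at high density (191–222).

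Depletion of Luc7 came with the broadest fall of these genes. Of the 58, 56 fell and 0 rose, against 34.3% of the 6156 sequences tested that were called lower and 34.0% called higher. The median change was −0.53 on the log2 scale, against 0.01 over all sequences tested, and all 58 were below 0 (0 higher at an unadjusted p below 0.05, and 0 higher in DESeq2). All 3 box C/D genes, 7 UTP-A genes, 6 UTP-B genes, 5 helicases and 20 other pre-60S genes fell, as did 11 of 12 other small-subunit genes and 4 of 5 U3, Mpp10 and UTP-C genes. On the TPM scale, where limma-trend was used, all sequences had a median of 0.28 and the biogenesis genes −0.28, which is −0.56 relative to it, and 37 fell while UTP20 was called higher.

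NOG2 (YNR053C, chromosome XIV, 721120–723112, minus strand), a GTPase that readies the pre-60S particle for export, had 308, 279 and 298 normalized CPM in the undepleted and 134, 115 and 131 in the depleted libraries. The groups were far apart, and NOG2 fell by 1.22 ± 0.07 on the log2 scale (SE, 3 libraries per group, edgeR adjusted p = 2.43e-07), a 2.33-fold lower level. It is the single gene of the 58 with an annotated intron, of 532 bases at chrXIV:721771-722302, in which the snoRNA gene SNR191 lies (chrXIV:721938-722211). Its 5′ splice site is shown as a description, with the first 6 bases of the intron in capitals, at chrXIV:722293-722312 on the minus strand.
NOG2 5′ splice site: ctgggttgcaGTATGTtaac

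Reads were assigned to spliced coding sequences only, so spliced and unspliced NOG2 RNA were not told apart here. NOG2 was the lowest of the 58 after depletion, and it was also the lowest called gene in humanized cells at low density, as given below. In the triple mutant against wildtype, DBP8, MAK16 and NSA2, which have no annotated intron, had lower log2 fold changes than NOG2. Whether the intron has a part in these changes was not tested.

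DBP3 (YGL078C), a DEAD-box helicase of large-subunit assembly, came next in the depletion, with 440, 403.5 and 422 normalized CPM before and 221, 195 and 223.5 after. Its log2 fold change was −0.99 ± 0.07 (edgeR adjusted p = 7.32e-07). RLP7 (YNL002C), a ribosomal protein relative that binds the pre-60S particle, went from 297.5, 306 and 304 to 179, 159 and 175, a log2 fold change of −0.82 ± 0.06 (edgeR adjusted p = 9.85e-07). In all 3 genes each depleted library lay below each undepleted one.

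The box C/D genes fell by similar amounts. NOP56 had 865, 856 and 820 normalized CPM in undepleted and 524, 482 and 535 in depleted libraries, and its log2 fold change was −0.72 ± 0.06 (edgeR adjusted p = 3.96e-06). NOP58 changed by −0.66 ± 0.08 and NOP1 by −0.63 ± 0.08 (edgeR adjusted p = 2.78e-05 and 7.14e-05). Among the small-subunit factors, the helicase DBP8 (YHR169W) changed by −0.77 ± 0.07, the UTP-C protein UTP22 by −0.65 ± 0.07, PWP2 of UTP-B by −0.62 ± 0.07, UTP10 of UTP-A by −0.51 ± 0.08 and MPP10, which names the Mpp10 complex, by −0.48 ± 0.06. BMS1, a GTPase of the processome, changed by −0.42 ± 0.07, and RRP5, a factor of both subunits, by −0.32 ± 0.08. These 7 genes were called, with edgeR adjusted p from 8.25e-06 (DBP8) to 0.00410 (RRP5). In the pre-60S group the GTPase NOG1 changed by −0.72 ± 0.07, the helicase HAS1 by −0.64 ± 0.07 and the rRNA methyltransferase NOP2 by −0.46 ± 0.07, each called.

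UTP20 and RRP9 were the 2 genes not called. UTP20 had 283, 258 and 254 normalized CPM in undepleted and 263, 251.5 and 277 in depleted libraries, so the groups overlapped (log2 fold change −0.01 ± 0.06, edgeR adjusted p = 0.906). RRP9 (YPR137W), the protein specific to the U3 particle, had 182, 199 and 195 before and 181, 156.5 and 191 after, again overlapping, with −0.13 ± 0.08 (edgeR adjusted p = 0.164).

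The Luc7 triple mutant also held less of nearly all of these mRNAs than wildtype at low density. Of the 58, 54 fell and 0 rose, against 26.5% of 6107 sequences called lower and 28.3% called higher. The median log2 change was −0.35, against 0.00 over all sequences tested, and all 58 were below 0 (0 higher at an unadjusted p below 0.05, in DESeq2 or in limma-trend). All of the box C/D, UTP-A, UTP-B and other pre-60S genes fell, and the 4 genes not called were UTP22 (−0.09), BMS1 (−0.06), the small-subunit factor UTP14 (−0.14) and the helicase DBP10 (−0.09). On the TPM scale limma-trend called 32 lower, with a median of −0.34 relative to all sequences, whose own median was 0.13. The triple mutant and wildtype also differed in URA3 and LEU2 reads, and their media were not given. Markers, medium and the changes in Luc7 therefore cannot be told apart here.

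DBP8 had the lowest log2 fold change. It had 126, 145 and 129 normalized CPM in wildtype and 77.5, 70.4 and 72.5 in the triple mutant. The groups did not overlap, and the level was 1.82-fold lower (−0.87 ± 0.06, edgeR adjusted p = 2.24e-06). MAK16, a pre-60S factor, had 204, 231 and 203 against 138, 131 and 127 (−0.70 ± 0.06, edgeR adjusted p = 9.73e-06). NSA2, a pre-60S factor, had 247, 294 and 228 against 167, 161 and 149 (−0.69 ± 0.08, edgeR adjusted p = 7.95e-05). In all 3 genes wildtype replicate 2 was the highest library, and the calls held without it.

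NOG2 had 435, 466 and 435 normalized CPM in wildtype and 292, 276 and 277 in the triple mutant (−0.67 ± 0.05, edgeR adjusted p = 2.20e-06), and NOG1 went from 664, 602 and 660 to 478, 465 and 450 (−0.47 ± 0.05, edgeR adjusted p = 4.21e-05). The box C/D genes moved little. NOP58 changed by −0.20 ± 0.05, NOP56 by −0.15 ± 0.05 and NOP1 by −0.13 ± 0.05 (edgeR adjusted p = 0.00620, 0.0221 and 0.0417). NOP1 had 1292, 1330 and 1258 normalized CPM in wildtype against 1244, 1189 and 1143, groups that were separate by a small margin. Its call was lost without wildtype replicate 1, any humanized replicate or triple mutant replicate 2 or 3 (edgeR adjusted p = 0.0633 to 0.151), and on the TPM scale its change was 0.01. The NOP56 call was lost without wildtype replicate 1 or triple mutant replicate 3 (0.0531 and 0.0819 in edgeR).

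UTP10, PWP2, NOP2, RRP5, HAS1 and MPP10 were called as well, with log2 fold changes from −0.33 ± 0.05 (UTP10) to −0.17 ± 0.06 (MPP10). The MPP10 call was lost without wildtype replicate 3 or triple mutant replicate 2 or 3 (edgeR adjusted p = 0.0616 to 0.0940).

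Against humanized cells at low density the triple mutant showed the same direction, with the triple mutant libraries used again. Of the 58, 50 fell and 0 rose, against 16.1% of sequences called lower and 17.8% called higher, with a median of −0.32 and all 58 below 0 (0 higher at an unadjusted p below 0.05, in DESeq2 or in limma-trend). DBP8 (−0.65 ± 0.06), MAK16 (−0.50 ± 0.06) and YTM1 (−0.48 ± 0.05), a partner of NOP7 and ERB1 in the PeBoW complex, were the lowest, with edgeR adjusted p of 2.81e-05, 1.60e-04 and 7.77e-05. YTM1 had 239.5, 226 and 228 normalized CPM in humanized and 170, 164 and 163.5 in triple mutant libraries. None of the 3 box C/D genes was called here, with log2 fold changes of −0.06 (NOP1), −0.11 (NOP56) and −0.13 (NOP58). Markers differed in this comparison too, and the media were not given, so these cannot be told apart from the changes in Luc7 and U1C.

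**Figure D3:**
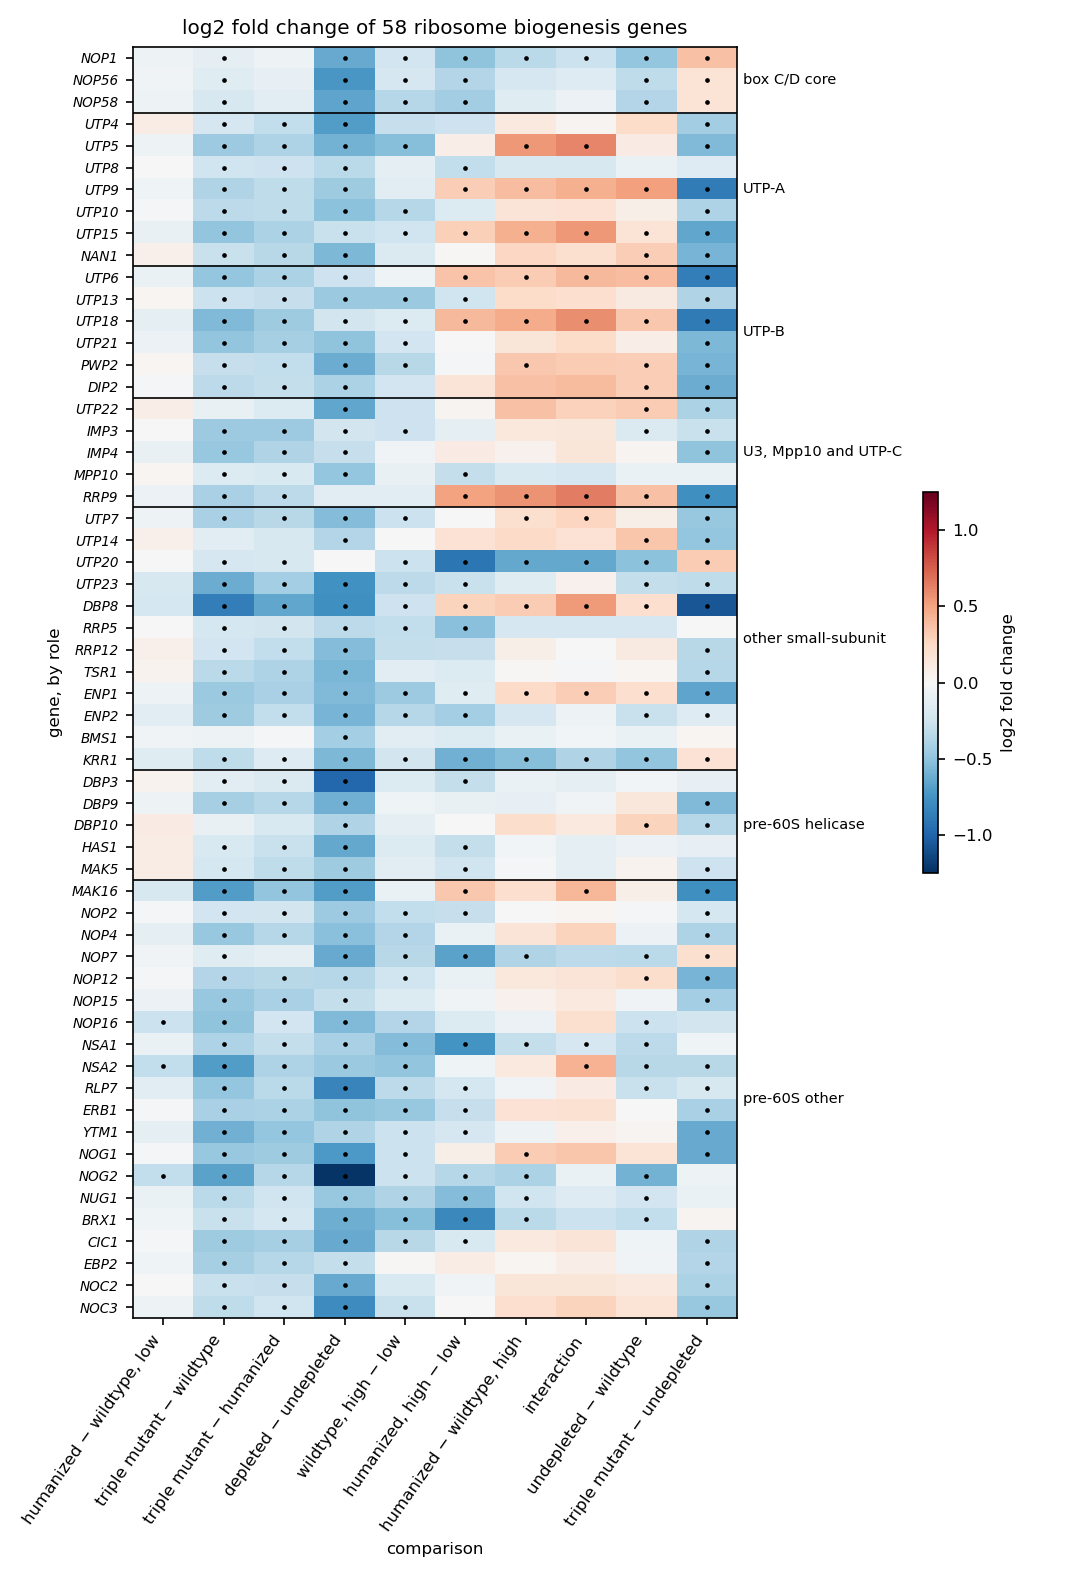
Log2 fold change (colour) of each of the 58 ribosome biogenesis genes (rows, by role) in 10 comparisons (columns), with a dot where edgeR called the gene. The depletion column and those of the triple mutant against wildtype and humanized cells at low density are blue for nearly all genes, while the columns for humanized cells at high density and for the undepleted strain mix red and blue.

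With humanized U1C at low density few of these genes passed the test. Of the 58, 3 fell and 0 rose, against 3.88% of sequences called lower and 2.67% called higher (0 higher at an unadjusted p below 0.05, in DESeq2 or in limma-trend). The median was −0.06, against 0.00 over all sequences. The 3 genes were the pre-60S factors NOG2, NSA2 and NOP16. NOG2 had 435, 466 and 435 normalized CPM in wildtype and 370, 365 and 349.5 in humanized cells, without overlap (−0.31 ± 0.05, edgeR adjusted p = 0.00478). NSA2 (−0.31 ± 0.08) and NOP16 (−0.27 ± 0.07) lay at the threshold, with edgeR adjusted p of 0.0497 and 0.0478. NSA2 had 247, 294 and 228 normalized CPM in wildtype and 215, 202 and 207 in humanized cells, and NOP16 had 199, 218 and 193 against 173, 171 and 165. The groups were separate in both genes.

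The NOG2 call held without each library in turn, while those of NSA2 and NOP16 did not hold without any 1 of wildtype replicates 1 and 2, the humanized replicates and triple mutant replicate 2 (edgeR adjusted p = 0.0669 to 0.181), and NSA2 also without triple mutant replicate 1 or 3 (0.0626 and 0.0630). Without any 1 of those libraries other than triple mutant replicate 1 or 3 the count was 1, and without wildtype replicate 3 it was 9. With a length and GC offset in the fit, which removes the trend of counts with coding length and GC content, the count was 12.

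The change of a gene went with its length in some comparisons. For humanized against wildtype cells at low density, the log2 fold change and the log2 coding length had a Spearman correlation of 0.63 across the 58 genes and of 0.46 across all 6107 sequences, so longer genes tended to have higher values. For the triple mutant against wildtype these were 0.53 and 0.36, and in the depletion 0.10 and −0.00. For the triple mutant against humanized cells they were 0.32 and 0.13, and for undepleted against wildtype cells 0.36 and 0.19. The comparisons with wildtype share its low-density libraries. The genes share libraries and differ in GC content as well, so these are descriptions across genes. With the length and GC offset all 58 genes were called lower in the triple mutant, with a median of −0.49.

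**Figure D4:**
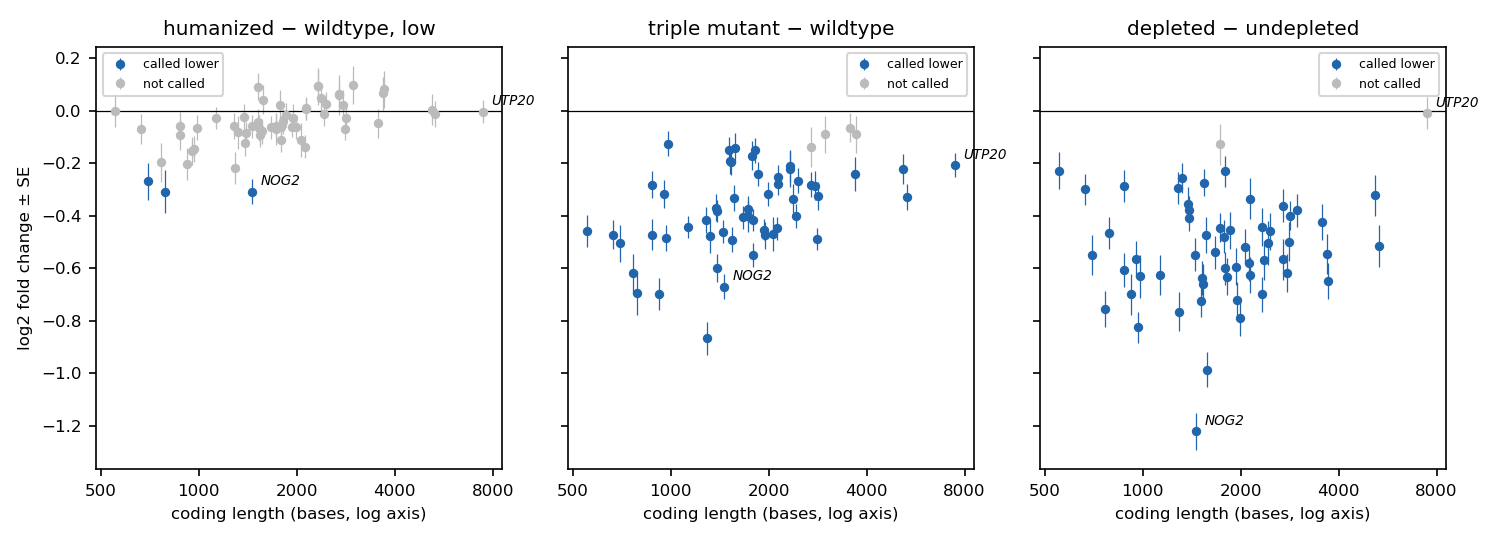
Log2 fold change ± SE (vertical axis) against coding length in bases (horizontal log axis) for the 58 genes in 3 comparisons, with blue points called lower and grey points not called. Values rise with length in the first 2 panels (Spearman 0.63 and 0.53) and not in the depletion panel (0.10), where NOG2 is lowest and the longest gene, UTP20, lies near 0.

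In wildtype cells the genes stood lower at high than at low density. Of the 58, 35 fell and 0 rose, against 22.7% of 6150 sequences called lower and 20.9% called higher (0 higher at an unadjusted p below 0.05, in DESeq2 or in limma-trend). The median was −0.26, against 0.01 over all sequences. All 3 box C/D genes fell, as did 8 of 12 other small-subunit genes, 16 of 20 other pre-60S genes, 4 of 6 UTP-B and 3 of 7 UTP-A genes, while none of the 5 helicases was called (median −0.13). The high-density libraries came from an earlier experiment, so density and experiment cannot be told apart.

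NSA1, a pre-60S factor, had 212, 215 and 209 normalized CPM at low and 151.5, 142 and 147 at high density (−0.54 ± 0.05, edgeR adjusted p = 2.12e-06). BRX1, which binds the early pre-60S particle, had 327, 352 and 308 against 237, 231 and 220 (−0.53 ± 0.06, edgeR adjusted p = 3.43e-05). UTP5 of UTP-A had 386, 395 and 388 against 280, 251 and 287.5 (−0.53 ± 0.06, edgeR adjusted p = 1.58e-05). None of these groups overlapped. NOP58 changed by −0.36 ± 0.06, NOP1 by −0.24 ± 0.06 and NOP56 by −0.21 ± 0.06 (edgeR adjusted p = 7.17e-04, 0.00411 and 0.0144).

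In wildtype replicate 2 at high density each role group had its lowest median of the 3 libraries. PWP2 had 264, 214 and 290 normalized CPM at high density, against 335, 297 and 333 at low density (−0.35 ± 0.09, edgeR adjusted p = 0.00712). Without both wildtype libraries numbered 2, an alternative chosen after seeing the data, 26 of the 58 were called lower, and the calls of NOP56, DBP8 and NOG2 were lost (edgeR adjusted p = 0.146, 0.0555 and 0.0665). NOP56 was also lost without wildtype replicate 2 at low density or replicate 1 at high density (0.0863 and 0.0856 in edgeR), NOG1 without replicate 1 at low density (0.0561), and RRP5, whose groups overlapped, without replicate 1 or 3 at low or replicate 1 at high density (0.0557 to 0.0681). On the TPM scale limma-trend called 4 lower, with a median of −0.23 relative to all sequences, which themselves had a median of 0.20.

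In humanized cells the genes moved in both directions with density. Of the 58, 25 fell and 7 rose, against 26.7% of sequences called lower and 27.7% called higher, with a median of −0.17 against 0.02. The 3 box C/D genes fell (NOP1 −0.51 ± 0.06, NOP58 −0.44 ± 0.06, NOP56 −0.37 ± 0.06), as did 10 of 20 other pre-60S genes and 6 of 12 other small-subunit genes. The 7 that rose were the U3 protein RRP9, UTP18 and UTP6 of UTP-B, UTP9 and UTP15 of UTP-A, MAK16 and DBP8. On the TPM scale limma-trend called 12 higher and 7 lower, where all sequences had a median of 0.23.

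UTP20 had 373, 385 and 381 normalized CPM at low and 195, 191 and 221.5 at high density in humanized cells, a 1.87-fold lower level (−0.90 ± 0.09, edgeR adjusted p = 4.62e-06). BRX1 had 328, 307 and 319 against 178, 180 and 187 (−0.80 ± 0.06, edgeR adjusted p = 7.74e-07), and NSA1 changed by −0.75 ± 0.05 (edgeR adjusted p = 1.10e-07). In the other direction RRP9 had 149, 143 and 136 at low and 205, 203 and 199 at high density, a 1.42-fold higher level (0.50 ± 0.06, edgeR adjusted p = 3.91e-05). UTP18 had 171, 171 and 164 against 223, 219 and 228 (0.41 ± 0.06, edgeR adjusted p = 7.00e-05), and UTP6 rose by 0.36 ± 0.07 (edgeR adjusted p = 0.00121). None of these groups overlapped.

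The comparison of the strains at high density had its own fit. Of the 58, 11 were higher and 8 lower in humanized than in wildtype cells. These shares were near those over all 6119 sequences, of which 16.0% were called higher and 12.6% lower. The median was 0.10 against 0.00. Other settings moved this split. It was 7 higher and 8 lower with DESeq2 size factors and 12 and 15 with the length and GC offset. With limma-trend on TPM, which changes the scale and the test together, it was 13 and 2, where all sequences had a median of 0.17. The cultures were taken at different densities, OD600 of about 8 and 5, so strain and density cannot be told apart here.

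Of the 11 genes higher in humanized cells at high density, all but NOG1 belonged to the small-subunit roles, and a difference between roles was not tested. RRP9 had 144.5, 122 and 146 normalized CPM in wildtype and 205, 203 and 199 in humanized cells (0.56 ± 0.07, edgeR adjusted p = 0.00227). UTP5 had 280, 251 and 287.5 against 400, 411 and 376 (0.54 ± 0.07, edgeR adjusted p = 0.00258), and UTP18 had 168, 149 and 171 against 223, 219 and 228 (0.46 ± 0.07, edgeR adjusted p = 0.00350). UTP15, UTP9, PWP2, UTP6, NOG1, DBP8, ENP1 and UTP7 were the other 8 called higher, with log2 fold changes of 0.20 to 0.45.

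The 8 genes called lower were led by UTP20, with 326.5, 271.5 and 355 normalized CPM in wildtype against 195, 191 and 221.5 in humanized cells (−0.64 ± 0.11, edgeR adjusted p = 0.00652). KRR1, an RNA-binding factor of the small subunit, had 217, 206 and 198.5 against 133, 141 and 154.5 (−0.53 ± 0.08, edgeR adjusted p = 0.00373). NOG2 had 385, 336 and 397 against 268.5, 298 and 279 (−0.40 ± 0.08, edgeR adjusted p = 0.0121), and NOP1 changed by −0.34 ± 0.07 (edgeR adjusted p = 0.0145). NOP7, BRX1, NSA1 and NUG1, all pre-60S factors, were the others.

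The count called higher was 4 or 5 without wildtype replicate 1 or any 1 humanized replicate at high density, and the count called lower was 2 without wildtype replicate 1 or humanized replicate 1 and 5 without humanized replicate 2. Of the genes with values above, NOG2 and NOP1 were lost without wildtype replicate 1 or humanized replicate 1 (edgeR adjusted p = 0.0618 to 0.0890), DBP8 without humanized replicate 1 or 2 (0.0636 and 0.0664 in edgeR), PWP2 without any 1 of the 4 libraries named for the higher count (0.0986 to 0.165), and NOG1 without these or wildtype replicate 2 (0.0547 to 0.190).

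Whether the effect of humanized U1C differed between the densities was tested as an interaction in 1 fit of the 4 wildtype and humanized groups. Of the 58, 11 had a higher and 4 a lower effect at high than at low density, against 9.84% of sequences called higher and 8.02% called lower, with a median of 0.13 against 0.00. RRP9 (0.64 ± 0.09), UTP5 (0.61 ± 0.08) and UTP18 (0.58 ± 0.08) were highest, with edgeR adjusted p of 6.82e-04, 4.04e-04 and 5.27e-04, and DBP8 had 0.53 ± 0.09 (edgeR adjusted p = 0.00152). UTP20 (−0.64 ± 0.12), KRR1 (−0.37 ± 0.10) and NOP1 (−0.27 ± 0.08) were lowest, with edgeR adjusted p of 0.00422, 0.0234 and 0.0355. UTP20 had 384.5, 361 and 390 normalized CPM in wildtype and 373, 385 and 381 in humanized cells at low density, which overlapped, while at high density every humanized library lay below every wildtype one. KRR1 was lost without any 1 of 5 libraries (edgeR adjusted p = 0.0512 to 0.0581) and NOP1 without any 1 of 8 (0.0564 to 0.0872). The count called lower was 1 or 2 without any 1 of wildtype replicates 1 and 3 or the humanized replicates at low density, or wildtype replicate 1 or humanized replicate 1 or 2 at high density. It was 8 without wildtype replicate 2 at high density and 11 without it at both. The count called higher was 7 without wildtype replicate 1 or humanized replicate 3 at high density, and with the length and GC offset it was 21.

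**Figure D5:**
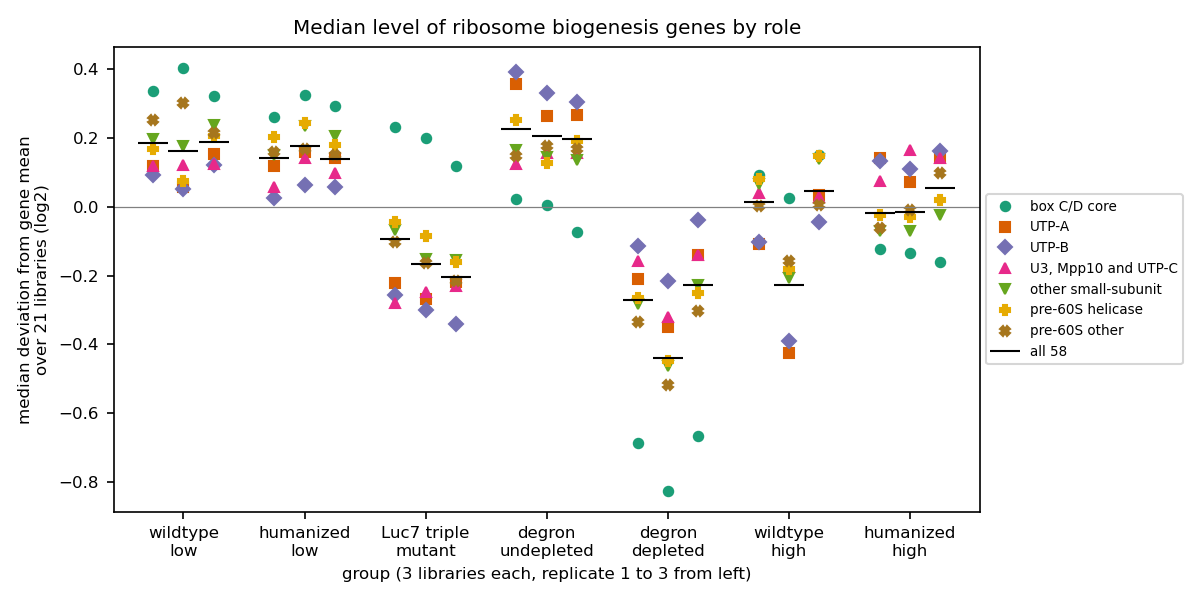
Median deviation of each role group from the gene means over 21 libraries (log2, vertical axis) in each library by group (horizontal axis), with a black dash for all 58 genes. The box C/D genes stand at 0.32–0.40 in wildtype at low density and −0.83 to −0.67 in depleted cells, and the UTP-B genes at 0.31–0.39 in undepleted and −0.34 to −0.26 in triple mutant libraries.

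Undepleted degron cells were compared with wildtype at low density in a fit of all 7 groups. Of the 58, 14 were higher and 16 lower, shares near those over all 6206 sequences, of which 28.7% were called higher and 26.7% lower, and the median was 0.03 for the genes and for all sequences. UTP-B (4 of 6) and UTP-A (3 of 7) had members called higher and none called lower, and the box C/D genes were lower (NOP1 −0.48 ± 0.07, NOP58 −0.36 ± 0.07, NOP56 −0.31 ± 0.06), although on the TPM scale NOP58 and NOP56 had 0.13 and 0.20, where all sequences had a median of 0.36. That scale gave 43 higher and 1 lower, and the length and GC offset 9 higher and 24 lower. Strain, markers and medium may differ between these groups and cannot be told apart from the tag on Luc7.

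UTP9 had 192, 193 and 196 normalized CPM in wildtype and 286.5, 274 and 265 in undepleted cells, a 1.42-fold higher level (0.51 ± 0.06, edgeR adjusted p = 2.52e-06). UTP6 (0.39 ± 0.07) and RRP9 (0.37 ± 0.07) followed, with edgeR adjusted p of 1.45e-04 and 3.46e-04. NOG2 had 435, 466 and 435 against 308, 279 and 298, a 1.51-fold lower level (−0.60 ± 0.07, edgeR adjusted p = 1.04e-06), and it fell further in the depletion. UTP20 (−0.51 ± 0.08) and KRR1 (−0.49 ± 0.07) were the next lowest, with edgeR adjusted p of 2.20e-05 and 8.25e-06. PWP2 (0.31 ± 0.09), UTP22 (0.31 ± 0.10) and DBP8 (0.21 ± 0.07) were called higher too. UTP22 was lost without wildtype replicate 2 or undepleted replicate 1 (edgeR adjusted p = 0.0904 and 0.0734) and DBP8 without wildtype replicate 1 (0.0681).

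Between the triple mutant and undepleted degron cells, which both carry LEU2 and nearly no URA3 reads, 41 of the 58 were lower in the triple mutant and 6 higher, against 23.5% of sequences called lower and 27.0% called higher. The median was −0.37, against 0.01. Only the degron strain is described with a tag on Luc7, and the media and the density of its cultures were not given. These cannot be told apart from the changes in Luc7. All 6 UTP-B genes and 6 of 7 UTP-A genes were lower. DBP8 had 149.5, 157 and 157 normalized CPM in undepleted and 77.5, 70.4 and 72.5 in triple mutant libraries, a 2.10-fold lower level (−1.07 ± 0.07, edgeR adjusted p = 4.25e-10). UTP18 had 237, 226 and 225 against 127, 126 and 120 (−0.88 ± 0.06, edgeR adjusted p = 2.44e-10), and UTP9 changed by −0.88 ± 0.06 (edgeR adjusted p = 2.04e-09).

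The 6 genes higher in the triple mutant were NOP1 (0.36 ± 0.07, edgeR adjusted p = 1.25e-04), UTP20 (0.32 ± 0.08, edgeR adjusted p = 0.00246), NOP7 (0.20 ± 0.08, edgeR adjusted p = 0.04997), KRR1, NOP58 and NOP56. NOP1 had 846, 983.5 and 951 normalized CPM in undepleted and 1244, 1189 and 1143 in triple mutant libraries, without overlap. On the TPM scale all sequences had a median of −0.20, NOP1 was not called, and UTP20 (−0.04), NOP7 (−0.10), NOP56 (−0.20) and NOP58 (−0.18) turned to negative values, so that 0 were higher and 52 lower. The count of 6 was 2 or 3 without triple mutant replicate 1 or 2 or undepleted replicate 2 or 3. NOP56 was lost without triple mutant replicate 2 or undepleted replicate 3 (edgeR adjusted p = 0.0712 and 0.0774). NOP58 was lost without any 1 of 9 libraries (0.0503 to 0.154) and NOP7 without any 1 of 15 (0.0526 to 0.173).

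Genes of the same pathway outside the set were read from 9 lists of 125 genes in all. In the triple mutant against wildtype 98 of the 125 fell and 5 rose (median −0.31), against 26.5% and 28.3% of all sequences. Examples were RSA4 (−0.80 ± 0.05) and REI1 (−0.75 ± 0.05) of late pre-60S maturation, LCP5 (−0.71 ± 0.06) of the processome, and RRN11 (−0.66 ± 0.06), an initiation factor of RNA polymerase I. All 8 ribosomal protein chaperones and 11 of 13 nuclear exosome genes fell. In the depletion 95 fell and 11 rose (median −0.36), against 34.3% and 34.0% of all sequences. Among those that fell were RPA190 (−0.76 ± 0.07), the largest subunit of RNA polymerase I, CBF5 (−0.84 ± 0.07), the pseudouridine synthase of box H/ACA particles, TIF6 (−0.85 ± 0.06), a pre-60S factor, and ROK1 (−0.98 ± 0.09), a helicase of the small subunit. RRN11, lower in the triple mutant, rose here by 0.49 ± 0.05, and in its list of 15 genes 2 rose and 8 fell. NPA3, in the list of other pre-60S genes but known as a GTPase for nuclear import of RNA polymerase II, rose by 0.67 ± 0.05.

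In humanized cells at low density 1 of the 125 was called, RCL1 of the processome (−0.20 ± 0.05, edgeR adjusted p = 0.0378). Over all sequences 3.88% were called lower and 2.67% higher there. Wildtype density gave 59 lower and 8 higher, against 22.7% and 20.9% of all sequences. Humanized density gave 61 lower and 29 higher, against 26.7% of all sequences lower and 27.7% higher. In the RNA polymerase I list 8 of 15 rose, the initiation factors RRN11 (1.37 ± 0.09) and RRN3 (0.74 ± 0.06) among them. The other 7, all subunits of the polymerase, fell, among them RPA14 (−0.68 ± 0.11) and RPA34 (−0.46 ± 0.06), both named after their values were seen. The large pre-60S ATPase REA1 fell there by 1.07 ± 0.10. The strains at high density gave 25 in each direction, against 16.0% of all sequences higher and 12.6% lower. The interaction gave 21 higher and 11 lower, against 9.84% and 8.02%, with REA1 again lowest (−1.06 ± 0.14). Undepleted against wildtype cells gave 33 higher and 49 lower, against 28.7% and 26.7%, and the triple mutant against undepleted cells 15 higher and 64 lower, against 27.0% and 23.5%.

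Of the 12 regulators in the lists, 3 rose and 2 fell in the triple mutant against wildtype, and 6 rose and 5 fell in the depletion. Over all sequences 28.3% were called higher and 26.5% lower in the first comparison, and 34.0% and 34.3% in the second. In the triple mutant against wildtype the mRNA of DOT6, which encodes a PAC repressor, rose by 1.10 ± 0.08, and that of its paralog TOD6 fell by 0.40 ± 0.07. In the depletion both fell, DOT6 by 0.79 ± 0.06 and TOD6 by 0.81 ± 0.07. STB3, which encodes the RRPE repressor, rose in both comparisons, by 0.40 ± 0.12 and 0.42 ± 0.06, and was named after its values were seen. IFH1, a coactivator of ribosomal protein genes, changed by −0.29 ± 0.08 in the triple mutant against wildtype and rose by 1.26 ± 0.13 with density in humanized cells. These are mRNA levels, and the activity of the proteins was not measured. All values named for genes outside the set in these 3 paragraphs were called by edgeR at an adjusted p of 0.0378 or less.

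The promoter cores were followed into the comparisons. In the depletion the 46 biogenesis genes with both cores had a median log2 change of −0.56, and the 12 others −0.38. In the triple mutant against wildtype the medians were −0.33 and −0.39. The genes of the pathway lists were kept among the genes outside the set. Genes outside the set with both cores numbered 218 of those tested in the triple mutant comparison and 216 in the depletion. Of these, 146 were lower and 12 higher in the triple mutant (median −0.25), and 133 lower and 29 higher in the depletion (median −0.31). Of the genes outside the set without the pair, 1316 of 5392 were lower and 1622 higher in the triple mutant, and 1837 of 5417 lower and 1945 higher in the depletion, with medians of 0.02 in each. The part of the cores in these changes was not tested.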

How the data were processed

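Polyadenylated RNA of 21 yeast libraries, 3 in each of 7 groups, was sequenced. Per the submitters' processing notes, the authors trimmed reads with cutadapt and quantified them with Salmon 1.9 against sacCer3, while trimming parameters and the strand setting were not given in the sources used here. Per the file headers, the deposited tables hold an estimated count and a TPM (scaled by effective length) for each of 6571 spliced coding sequences.

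Estimated counts were rounded and tested with edgeR 4.0.16 (quasi-likelihood, TMM, default low-count filter, R 4.3.3), with p-values adjusted by Benjamini-Hochberg over all sequences tested. The 3 low-density groups shared a fit, as did the 4 wildtype and humanized groups for density and interaction, and all 7 groups for comparisons with undepleted cells. Separate fits held the high-density groups and the degron groups. Alternatives were DESeq2 1.42.0 and its size factors, TMM on a reduced set, no filter, a replicate block, and a coding length and GC offset (spline, 4 df). Further ones were other sample sets, leaving out each library, and limma-trend (limma 3.58.1) on log2(TPM + 1). The reduced set for TMM left out the 58 biogenesis genes, the 125 genes of the pathway lists and 138 ribosomal protein genes. A log2(TPM + 1) difference understates the change of low genes. Scripts were tested on simulated data. Promoters were the 300 bases before the start codon in R64, for the 5875 sequences that could be read.

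The members and lists were chosen with earlier results of these data known. Named genes were, per comparison, the 3 highest and 3 lowest called members whose groups did not overlap, 14 members always followed, the highest and lowest by TPM, and from each pathway list up to 3 called genes with the smallest p.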

Additional observations from a re-analysis of the deposited data

Results flagged for a closer look

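The effect of humanized U1C differed between high and low density, by the interaction term of the edgeR fit, in 15 of the 58 genes. Over all sequences 9.84% were called higher and 8.02% lower in this test. The difference in log2 effect was positive for RRP9 (0.64), UTP5 (0.61), UTP18 (0.58), UTP15 (0.54), DBP8 (0.53), UTP9 (0.44), NSA2 (0.44), MAK16 (0.42), UTP6 (0.41), ENP1 (0.30) and UTP7 (0.27). It was negative for UTP20 (−0.64), KRR1 (−0.37), NOP1 (−0.27) and NSA1 (−0.21). The KRR1 call was lost without any 1 of 5 libraries and that of NOP1 without any 1 of 8 (edgeR adjusted p = 0.0512 to 0.0872). The high-density cultures came from an earlier experiment and the strains were taken at different densities there, so density, experiment and the density gap cannot be told apart in these values.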

How the results depend on the processing

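Depth did not limit these well-expressed genes, and 3 libraries per group, of unstated origin, set the precision. The count lower in humanized cells at low density (3) was 1 with no filter, 12 with the length and GC offset, 7 in DESeq2 and 0 in limma-trend. In limma-trend on TPM the triple mutant against wildtype gave 32 lower, the depletion 1 higher and 37 lower, wildtype density 4 lower, humanized density 12 higher and 7 lower, the strains at high density 2 lower, the interaction 6 higher and 2 lower, undepleted against wildtype 43 higher and 1 lower, and the triple mutant against undepleted cells 0 higher. At high density the count higher was 7 with DESeq2 size factors and 17 with all 7 groups, and the count lower 15 with the offset. The offset gave 21 higher in the interaction and 9 higher in undepleted cells. Leaving out both wildtype libraries numbered 2, chosen after seeing the data, gave 11 lower in the interaction. The causes were not tested.

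Leaving out 1 library gave 1 to 9 lower in humanized cells at low density, 4 to 12 higher and 2 to 12 lower at high density, 7 to 16 higher and 1 to 8 lower in the interaction, and 2 to 6 higher in the triple mutant against undepleted cells. It gave 55 to 56 lower in the depletion and 47 to 57 in the triple mutant against wildtype.

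The sign turned in limma-trend for NOP1 (0.013) in the triple mutant against wildtype, where the median of all sequences was 0.13 on that scale. It turned for NOP56 (0.016) and DBP8 (0.012) with wildtype density (median 0.20). In undepleted against wildtype cells (median 0.36) it turned for NOP56 (0.20), NOP58 (0.13), MPP10 (0.26), HAS1 (0.34) and NOP2 (0.36). In the triple mutant against undepleted cells (median −0.20) it turned for UTP20 (−0.041), NOP7 (−0.10), NOP56 (−0.20) and NOP58 (−0.18). As the whole scale shifted, a turned sign here need not be a turn relative to other sequences. In the triple mutant against undepleted cells NOP56 and the median of all sequences were both −0.20. With the offset UTP10 turned to −0.16 in undepleted against wildtype cells.

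Same-numbered libraries correlated from −0.42 to 0.53 in their deviations, and in no comparison were all 3 above 0.1. The highest values were 0.53 and 0.34, for wildtype numbers 2 and 3 at high against low density. With 3 libraries per group these values cannot decide whether the numbers pair the libraries. With the replicate block the counts lower were 1 for humanized against wildtype at low density, 52 for the triple mutant against wildtype and 56 in the depletion, and at high density 7 were higher and 6 lower.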
